A study of Mus musculus with 6 samples.

Results

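Families of fat- and sterol-sensing nuclear receptors and their PGC-1 coactivators were followed in mouse lung, in 10 genes of the 41388 in the count table. The members were taken by exact match of the gene symbol: the fatty acid receptors Ppara, Ppard and Pparg, their coactivators Ppargc1a and Ppargc1b, the retinoid X receptors Rxra, Rxrb and Rxrg, and the oxysterol receptors Nr1h2 (LXR beta) and Nr1h3 (LXR alpha). Each symbol matched 1 row, and all 10 members passed the filter on low counts. The 5 members with the lowest estimates in mice lacking the start of Zpbp2 were Ppara, Ppargc1b, Pparg, Rxrg and Ppargc1a, and Ppara alone passed the test in the fit used throughout. Ppard, Rxra, Rxrb, Nr1h2 and Nr1h3 had estimates between -0.01 and 0.13 on the log2 scale.

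Lung RNA from adult mice was sequenced at Zeitgeber time 7 (ZT7, 7 h after lights on), with 3 mice of each genotype. KO mice were of the strain B6.129S7-Zpbp2 tmZuk/Mmjax, which lacks the 5′ end of Zpbp2 (exons 1 to 3) on a C57BL/6J background. WT mice were C57BL/6J animals from the same colony, so that both groups shared the stated background, the tissue and the hour. They are not described as littermates, so that the deletion cannot be told apart from other differences between the mouse lines. The deletion is present in every cell of the KO animals, the labels do not give the sex of each animal, and the study asked how the Zpbp2 region and the circadian clock act on each other. Whole lung was used, so that fewer cells of a type and less RNA per cell cannot be told apart in any of the values that follow.

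PPARs and LXRs bind DNA as heterodimers with an RXR. The PPARs respond to fatty acids and their derivatives: PPAR alpha (Ppara) is known for driving fatty acid oxidation in liver, heart and brown fat, PPAR gamma (Pparg) for fat cell formation and, in the lung, for the maturation of alveolar macrophages, and PPAR delta (Ppard) is expressed in most tissues. LXRs respond to oxysterols and turn on cholesterol efflux and fatty acid synthesis. PGC-1 alpha (Ppargc1a) and PGC-1 beta (Ppargc1b) do not bind DNA themselves but are recruited by PPARs and other factors, and raise the transcription of mitochondrial and fat-burning genes.

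The promoter windows of Ppara, Pparg, Ppargc1a and Rxrg are shown because these are members with low estimates in KO that had a window in the promoter set used here. Each window runs from 250 bases before to 50 bases after a RefSeq start site on GRCm38.p6 and is written 5′ to 3′ on the strand of the gene. Capitals mark the hexamer AGGTCA, the core of the sites that these receptors bind, searched on both strands. Pparg is shown at 2 of its 3 start sites and Rxrg at 1 of its 2, picked because these windows hold the hexamer and the windows left out do not. The windows lie at chr15:85735526-85735825 (plus strand) for Ppara, chr6:115360894-115361193 and chr6:115362099-115362398 (plus strand) for Pparg, chr5:51567676-51567975 (minus strand) for Ppargc1a and chr1:167618015-167618314 (plus strand) for Rxrg.
Ppara: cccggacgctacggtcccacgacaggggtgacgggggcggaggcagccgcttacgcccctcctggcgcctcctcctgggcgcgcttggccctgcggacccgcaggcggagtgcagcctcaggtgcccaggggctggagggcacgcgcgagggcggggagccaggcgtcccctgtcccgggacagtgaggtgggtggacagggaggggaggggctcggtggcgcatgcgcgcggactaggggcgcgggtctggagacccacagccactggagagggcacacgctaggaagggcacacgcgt
Pparg, upstream start: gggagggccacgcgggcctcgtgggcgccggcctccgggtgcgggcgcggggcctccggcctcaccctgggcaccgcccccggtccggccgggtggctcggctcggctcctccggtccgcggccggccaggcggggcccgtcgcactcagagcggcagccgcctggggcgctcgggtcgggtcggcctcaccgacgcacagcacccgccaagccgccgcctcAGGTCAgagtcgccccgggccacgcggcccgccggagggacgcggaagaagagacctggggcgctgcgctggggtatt
Pparg, next start: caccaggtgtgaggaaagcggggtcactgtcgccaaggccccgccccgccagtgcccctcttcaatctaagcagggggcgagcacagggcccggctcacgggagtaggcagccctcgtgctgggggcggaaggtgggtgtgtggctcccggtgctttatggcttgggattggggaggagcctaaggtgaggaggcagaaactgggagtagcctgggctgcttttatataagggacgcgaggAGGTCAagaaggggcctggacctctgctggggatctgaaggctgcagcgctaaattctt
Ppargc1a: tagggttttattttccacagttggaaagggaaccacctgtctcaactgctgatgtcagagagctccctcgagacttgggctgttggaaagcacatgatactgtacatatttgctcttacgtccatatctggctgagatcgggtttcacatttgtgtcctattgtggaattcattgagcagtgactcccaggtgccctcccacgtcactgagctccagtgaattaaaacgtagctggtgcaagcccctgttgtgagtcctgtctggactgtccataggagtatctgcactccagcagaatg
Rxrg, downstream start: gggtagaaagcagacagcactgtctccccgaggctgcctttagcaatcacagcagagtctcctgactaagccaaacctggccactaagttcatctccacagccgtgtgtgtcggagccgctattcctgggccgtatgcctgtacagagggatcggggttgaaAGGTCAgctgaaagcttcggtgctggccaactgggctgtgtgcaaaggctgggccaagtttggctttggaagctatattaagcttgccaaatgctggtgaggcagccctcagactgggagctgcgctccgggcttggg

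RefSeq windows were found for 9 of the 10 members, 15 windows in all, and none for Ppargc1b. AGGTCA occurred in 4 of these 15 windows (2 of Pparg, 1 of Rxra and 1 of Rxrg), against 16.3% of the 32851 windows of this length over all genes. The direct repeat with 1 base between (AGGTCANAGGTCA), the form bound by PPAR and RXR, was in 0 of the 15 windows and in 0.0396% of all windows. The repeat with 4 bases between (AGGTCANNNNAGGTCA), bound by LXR and RXR, was in 0 of the 15 and in 0.0152% of all. For the 2 clock elements searched, the E-box CACGTG was in 0 of the 15 windows and 7.15% of all, and the D-box form TTATGNAA in 0 of the 15 and 3.38% of all. All letters were searched on both strands; a hexamer match inside a repeat counts for both. The windows differed in base composition, from 83.0% G and C at the first start of Rxra to 40.3% at the third start of Pparg, against a median of 52.7% over all windows.

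The libraries held 59134950 to 71354388 counts, and 23070 to 23711 genes were detected in each. Zpbp2 had 20, 15 and 7 counts in WT1, WT2 and WT3 and 1, 0 and 0 in KO1, KO2 and KO3. The counts of KO2 and KO3 were almost alike: their variance was 1.69 to 1.93 times the counting variance across 3 ranges of counts per gene, against 1.84 to 9.23 times for WT1 and WT2 and 3.46 to 20.7 times for KO1 and KO2. They were counted as 1 sample (n = 3 for WT, n = 2 for KO), with their counts summed, and the fit of all 6 libraries as separate samples is given beside it. WT3 and KO1 stood apart from the other 4 libraries, with squamous epithelium genes summing to 4589 and 8571 CPM against 43.2 to 50.4, and skeletal muscle genes to 3408 and 5021 CPM against 60.3 to 123. CPM is the count in parts per 1e6 of the scaled library size. Genes that define lung, such as the surfactant gene Sftpc and Ager, were high in all libraries. Of these, 8 of 8 had a higher estimate in KO, 4 of them past the test (5 with 6 separate libraries). Over all tested genes, 257 of 18660 were called higher, and 9.81% with 6 separate libraries. Every KO library lay above every WT library in 6 of the 8 lung genes, against 20.0% of all tested genes.

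Over all 18660 tested genes, 2.28% passed an adjusted p threshold of 0.05 (257 higher and 169 lower in KO), and 0.906% were called lower. Among the 10 members, 1 was called, in the lower direction. With 6 separate libraries, 9.07% of the 18014 tested genes were called lower and 9.81% higher, and 3 members were called, all lower: Ppara, Ppargc1a and Ppargc1b. Every KO library lay below every WT library in 5 members, against 20.7% of all tested genes. Every KO library lay above every WT library in 1 member, Nr1h3, against 20.0% of all tested genes. The median estimate of the members was -0.34 on the log2 scale, against 0.02 over all tested genes.

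**Figure D1:**
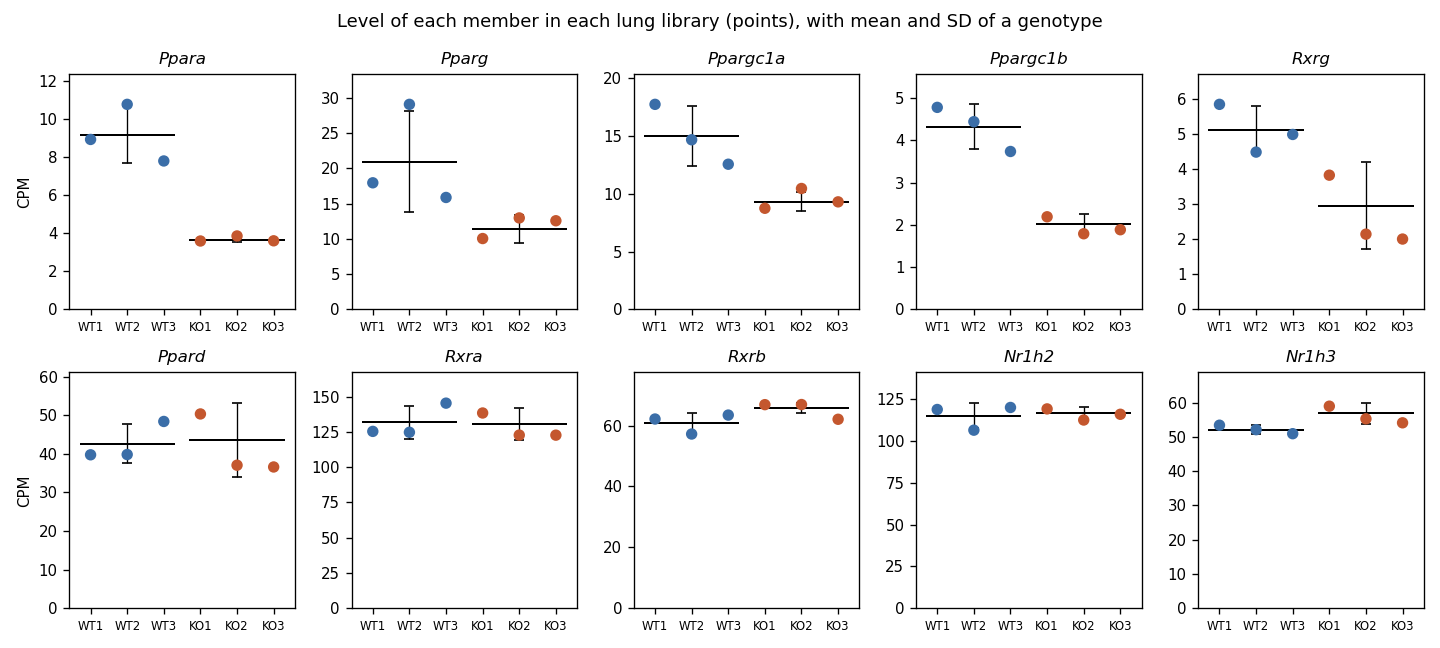
Level of each of the 10 members (CPM, linear axis from 0) in the 6 libraries, WT in blue and KO in orange, with the group mean and SD (n = 3 for WT; n = 2 for KO, with KO2 and KO3 averaged). All KO points of Ppara lie between 3.59 and 3.85 CPM and all WT points between 7.79 and 10.8 CPM, while Rxra and Nr1h2 overlap.

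Ppara (ENSMUSG00000022383) lies on the plus strand of chromosome 15 at 85734983 to 85802819 in GRCm38. Its level was 8.92 CPM in WT1, 10.8 in WT2 and 7.79 in WT3, and 3.59 CPM in KO1, 3.85 in KO2 and 3.60 in KO3. The KO libraries lay close together and well below the lowest WT library. The mean was 9.15 ± 1.5 CPM in WT (SD, n = 3) and 3.65 ± 0.0969 CPM in KO (SD, n = 2), a level 60.1% lower. The log2 fold change was -1.32 (SE 0.17, 95% interval -1.75 to -0.88; edgeR adjusted p = 0.0446), which ranked 198 of 18660 by p. With the 6 libraries separate it was -1.31 (adjusted p = 0.00624). Its call was lost on leaving out WT1 (adjusted p = 0.170), WT2 (0.189), WT3 (0.123) or KO1 (0.0924), and with an offset for gene length and GC content (0.102). Over the 17 alternatives its adjusted p ran from 3.95e-10 to 0.189 and its log2 fold change from -1.43 to -1.19.

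Neither of the other PPAR genes was called. Pparg (ENSMUSG00000000440, chromosome 6, 115360951 to 115490399, plus strand) was at 18.0 CPM in WT1, 29.1 in WT2 and 15.9 in WT3, and at 10.04 CPM in KO1, 13.0 in KO2 and 12.6 in KO3. The WT libraries were spread widely, with WT2 the highest, and no KO library reached the lowest of them. Its log2 fold change of -0.87 (SE 0.30, 95% interval -1.64 to -0.10) did not pass the test (adjusted p = 0.149), and without WT2 the estimate was -0.57 (adjusted p = 0.225). Ppard (ENSMUSG00000002250, chromosome 17, 28232700 to 28301474, plus strand) was at 39.8, 39.8 and 48.4 CPM in WT1 to WT3 and at 50.4, 37.1 and 36.6 CPM in KO1 to KO3. KO1 and WT3, the 2 libraries with squamous epithelium and skeletal muscle genes, were the highest, and the genotypes overlapped. The estimate for Ppard was 0.03 (SE 0.16, 95% interval -0.38 to 0.44, adjusted p = 0.913).

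The coactivators were both lower in every KO library. Ppargc1b (ENSMUSG00000033871), the least abundant member per length, was at 4.78 CPM in WT1, 4.44 in WT2 and 3.73 in WT3, and at 2.19 CPM in KO1, 1.79 in KO2 and 1.88 in KO3. The mean was 53.4% lower in KO, and the highest KO library was below the lowest WT library. Its log2 fold change of -1.10 (SE 0.18, 95% interval -1.55 to -0.65) missed the threshold with an adjusted p of 0.0506, and its adjusted p was 0.00852 with 6 separate libraries. Ppargc1a (ENSMUSG00000029167, chromosome 5, 51454250 to 51567726, minus strand) was at 17.7 CPM in WT1, 14.7 in WT2 and 12.6 in WT3, and at 8.74 CPM in KO1, 10.5 in KO2 and 9.30 in KO3. Its estimate was smaller than that of Ppargc1b, at -0.68 (SE 0.17, 95% interval -1.13 to -0.24; adjusted p = 0.0897, or 0.0271 with 6 separate libraries).

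Of the RXRs, Rxrg, known mainly from heart, skeletal muscle and brain, was the lowest in level and the only one whose genotypes did not overlap. Rxrg (ENSMUSG00000015843, chromosome 1, 167598384 to 167639623, plus strand) was at 5.84 CPM in WT1, 4.48 in WT2 and 4.99 in WT3, and at 3.82 CPM in KO1, 2.14 in KO2 and 2.004 in KO3. KO1 lay between KO2 and KO3 on one side and the WT libraries on the other. The log2 fold change was -0.79 (SE 0.30, 95% interval -1.55 to -0.03, adjusted p = 0.173). Without KO1 it was -1.30 (adjusted p = 0.0921). Rxra, the most abundant RXR, was at 125, 125 and 145 CPM in WT1 to WT3 and at 138, 123 and 123 CPM in KO1 to KO3, and Rxrb at 57.2 to 63.5 CPM in WT and 62.1 to 66.9 CPM in KO. The libraries of both genes overlapped between genotypes. The estimates were -0.01 for Rxra (SE 0.10, 95% interval -0.25 to 0.23, adjusted p = 0.962) and 0.11 for Rxrb (SE 0.06, 95% interval -0.05 to 0.27, adjusted p = 0.311).

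The LXRs had small estimates with narrow intervals. Nr1h2 was at 119, 106 and 120 CPM in WT1 to WT3 and at 119, 113 and 116 CPM in KO1 to KO3, with overlap and an estimate of 0.02 (SE 0.07, 95% interval -0.16 to 0.21, adjusted p = 0.861). Nr1h3 was at 53.4, 52.1 and 50.9 CPM in WT1 to WT3 and at 58.95, 55.3 and 54.1 CPM in KO1 to KO3. Every KO library of Nr1h3 was above every WT library, by an estimate of 0.13 (SE 0.05, 95% interval -0.01 to 0.27) that did not pass the test (adjusted p = 0.203). Nr1h3 shares 34 exon bases, 1.35% of its exons, with Gm13783 on the same strand, which had 26 counts in all libraries together. No other member shares exon bases with another gene.

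**Figure D2:**
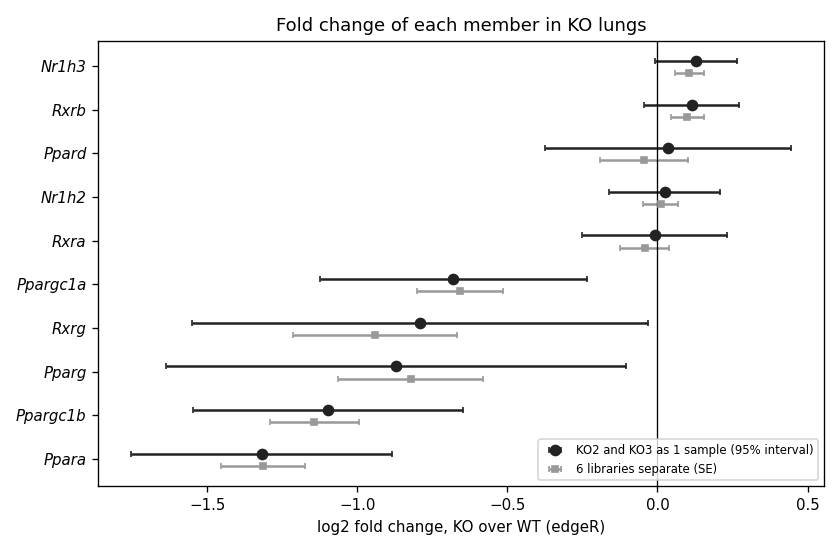
Log2 fold change of each member, KO over WT. Black circles with 95% interval give the fit with KO2 and KO3 as 1 sample, and grey squares with SE the 6 separate libraries. Ppara at -1.32 is the only member called in the first fit, and Ppard, Rxra, Rxrb, Nr1h2 and Nr1h3 sit within 0.15 of 0.

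The difference was compared within sets of libraries, since WT3 and KO1 stood apart. KO1 against WT3 gave a log2 ratio of -1.12 for Ppara, -0.77 for Ppargc1b, -0.66 for Pparg, -0.52 for Ppargc1a and -0.38 for Rxrg. KO2 and KO3 against WT1 and WT2 gave -1.40 for Ppara, -1.33 for Ppargc1b, -0.88 for Pparg, -0.71 for Ppargc1a and -1.32 for Rxrg. All 5 were lower in KO in both sets, and the ratio of Rxrg was the most different between the sets. In the fit without WT3 and KO1, edgeR called 5.88% of 18971 tested genes lower, and all 5 of these members, with adjusted p of 0.00423 for Ppara, 0.0068 for Ppargc1b, 0.0112 for Rxrg, 0.0209 for Ppargc1a and 0.0476 for Pparg. That fit set WT1 and WT2 against the sum of KO2 and KO3, so that KO was 1 sample with no spread of its own and was assumed to vary like WT.

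Levels of different genes were compared as RPKM, that is CPM divided by the exon length in kilobases. In WT the order of the members was Nr1h2 (34.3 RPKM), Rxra (24.1), Nr1h3 (20.7), Rxrb (15.3), Pparg (7.10), Ppard (5.68), Ppara (2.39), Ppargc1a (2.27), Rxrg (2.22) and Ppargc1b (1.08). Ppara, Ppargc1a and Rxrg did not differ in WT beyond their SDs of 0.391, 0.395 and 0.300. In KO the means were 0.953 ± 0.0253 RPKM for Ppara, 1.41 ± 0.122 for Ppargc1a, 1.28 ± 0.539 for Rxrg and 0.505 ± 0.0627 for Ppargc1b. Pparg and Ppard did not differ in WT beyond their SDs, at 7.10 ± 2.41 and 5.68 ± 0.662 RPKM: Pparg was the higher of them in WT1 and WT2 and Ppard in WT3. In KO Ppard was higher than Pparg in all 3 libraries, at 5.80 ± 1.27 and 3.86 ± 0.652 RPKM.

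Shares within each family were compared next, on the same scale. Ppara was 15.7 ± 1.16% of the summed PPAR RPKM in WT and 8.99 ± 0.740% in KO, Pparg 46.0 ± 8.14% and 36.6 ± 8.19%, and Ppard 38.2 ± 8.51% and 54.4 ± 8.93%. The summed PPAR level was 15.2 ± 2.42 RPKM in WT and 10.6 ± 0.595 in KO. The share of Ppara was below its WT range in every KO library, and that of Ppard above its WT range in every one, while the shares of Pparg overlapped. The PGC-1 sum was 3.36 ± 0.524 RPKM in WT and 1.92 ± 0.0589 in KO. The RXR sum was 41.7 RPKM in both genotypes, of which Rxrg made up 5.34 ± 0.736% in WT and 3.04 ± 1.07% in KO. The LXR sum was 55.1 ± 2.27 RPKM in WT and 57.4 ± 2.24 in KO. These shares were given no test.

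**Figure D3:**
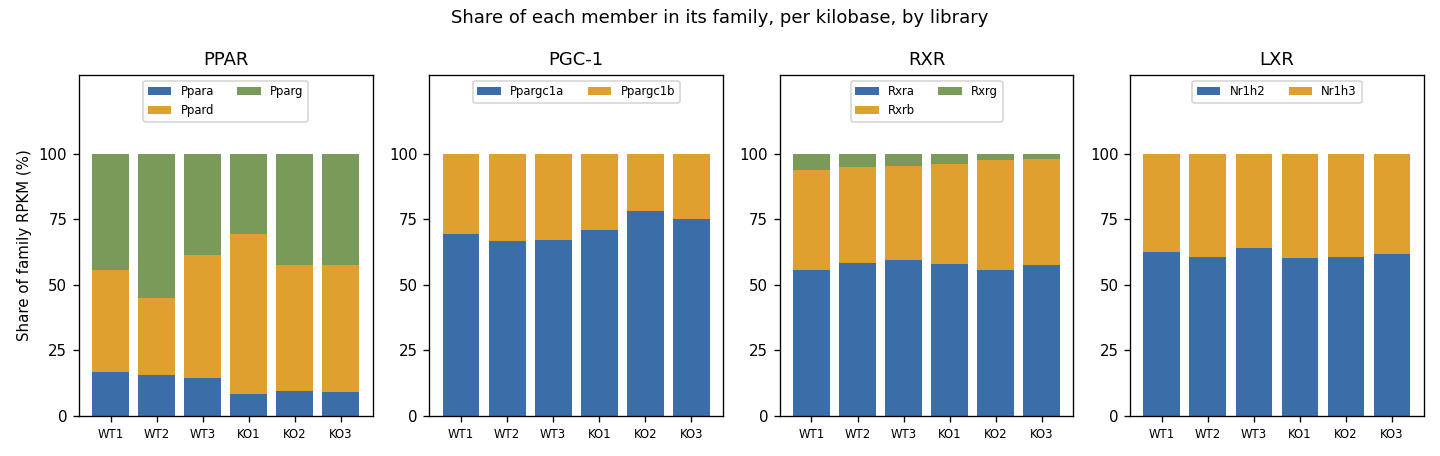
Share of each member in the summed RPKM of its family (percent), in the 6 libraries. Ppara makes up 14.7% to 17.0% of the PPAR sum in WT and 8.47% to 9.72% in KO, while the split between Nr1h2 and Nr1h3 stays near 62.3% in WT and 60.7% in KO for Nr1h2.

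The wider pathway was read from 8 lists: 4 of genes that the PPARs, LXRs and PGC-1 act on, and 4 of cofactors, other RXR partners and lipid-binding proteins. Over all tested genes, 0.906% were called lower in the fit used here, and 9.07% lower and 9.81% higher with 6 separate libraries. The lists were chosen with earlier results of these data known. Several fat storage genes, such as Plin4 and Fabp4, are among those the paper reported as different at ZT7 in these lungs. The counts are therefore a description, and no list was tested. Of the 22 fat storage genes of the PPAR gamma type, 8 of 22 tested were called, all lower, 21 had a lower estimate, and the median was -1.48. Lpl, the lipase that releases fatty acids from lipoproteins, fell from 366 ± 1.65 to 177 ± 1.40 CPM (log2 fold change -1.04, adjusted p = 0.0251). Plin4, a lipid droplet coat protein, fell from 121 to 32.4 CPM (-1.89, adjusted p = 0.0446) and Aqp7, a glycerol channel, from 6.89 to 0.733 CPM (-3.22, adjusted p = 0.0446). Cd36, the fatty acid receptor that is also made by lung endothelium and macrophages, did not pass the test, at 1184 CPM in WT and 958 CPM in KO (-0.30, adjusted p = 0.144). With 6 separate libraries 19 genes of this list were called lower.

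The fatty acid oxidation list of the PPAR alpha type held 22 genes, of which 19 were tested and 0 were called, with 15 lower by estimate and a median of -0.39. In the 6-library fit 7 of them were called lower. Hadha, a subunit of the mitochondrial trifunctional protein, was at 211 CPM in WT and 157 in KO (-0.42, adjusted p = 0.0993). Cyp4a10, Cyp4a14 and Fgf21, genes of liver, were at the floor of 3 counts or fewer in every library of both genotypes. In the list of mitochondrial genes on which PGC-1 acts, 0 of 18 tested were called, 14 were lower by estimate and the median was -0.16, while 6 were called lower with 6 separate libraries. Atp5b, a subunit of ATP synthase, was at 918 and 705 CPM (-0.38, adjusted p = 0.143), and Vegfa, an angiogenic factor, at 1126 and 1087 CPM (-0.05, adjusted p = 0.867).

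Sterol efflux and lipogenesis genes of the LXR type were called in 0 of 16 tested, and 11 were lower by estimate with a median of -0.04. The 2 with the highest level were the lipogenic enzymes, Scd1 at 3403 ± 927 CPM in WT and 1729 ± 118 in KO (-0.97, adjusted p = 0.0832) and Fasn at 1296 ± 495 and 530 ± 26.2 CPM (-1.29, adjusted p = 0.0893). In the 6-library fit 5 genes of this list were called, all lower.

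Of the other cofactors, 1 of 15 coactivators and 1 of 10 corepressors were called, both lower. Lpin1, which coactivates PPAR alpha with PGC-1 alpha and is also an enzyme of triglyceride synthesis, fell from 85.0 to 53.6 CPM (-0.66, adjusted p = 0.0446). Nrip1, a corepressor known for restraining fat burning in adipose tissue, fell from 40.3 to 29.7 CPM (-0.44, adjusted p = 0.0496). The acetyltransferase gene Ep300 (153 and 108 CPM, -0.49, adjusted p = 0.0532), Ncoa3 (126 and 106 CPM, -0.24, adjusted p = 0.0691) and the corepressor gene Ncor1 (218 and 162 CPM, -0.42, adjusted p = 0.0528) did not pass the test. The coactivators had a median of -0.24 and the corepressors of -0.15. With 6 separate libraries 9 of the coactivators were called lower, and 3 of the corepressors were called lower and 1 higher, against the 9.07% lower and 9.81% higher of all tested genes.

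Among the other partners of RXR, such as the retinoic acid and thyroid hormone receptors, 0 of 10 tested were called in either fit and the median was 0.07. The thyroid hormone receptor gene Thra was at 178 and 172 CPM (-0.04, adjusted p = 0.718), and Nr4a1, an immediate early gene that varied widely, at 108 ± 39.1 and 215 ± 164 CPM (1.01, adjusted p = 0.315). Of 11 binding proteins that carry fatty acids and retinoids in the cell and in plasma, 0 were called and the median was 0.43, with 2 called lower and 2 higher in the 6-library fit. Fabp4, the fatty acid binding protein of fat cells, was at 267 ± 92.1 CPM in WT and 47.0 ± 30.5 in KO (-2.50, adjusted p = 0.0698).

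**Figure D4:**
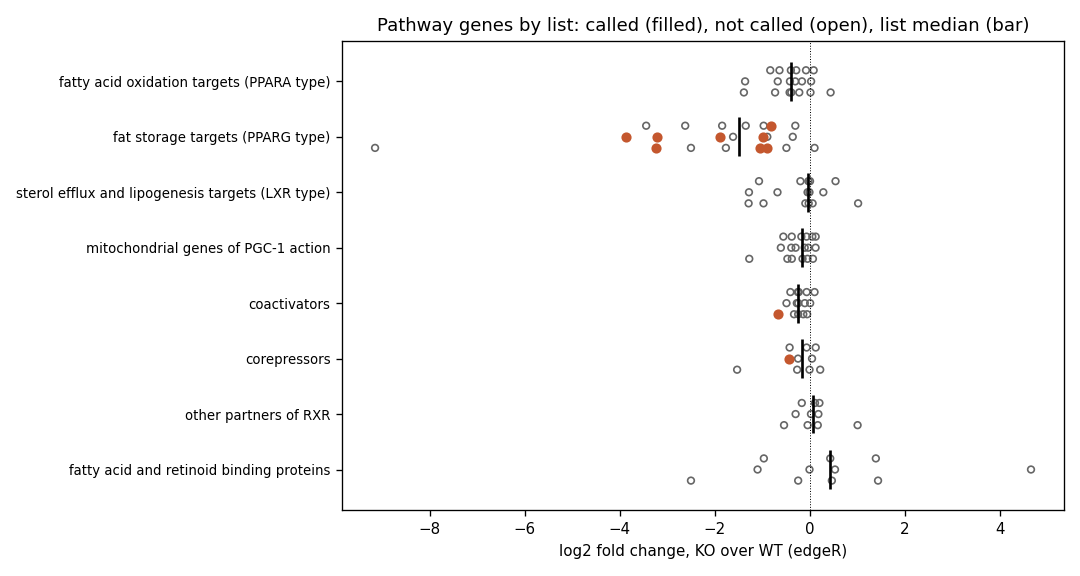
Log2 fold change, KO over WT, of every tested gene in the 8 pathway lists, with called genes filled and the median of a list as a bar. The fat storage list has 8 called genes, all lower, and a median of -1.48, while the LXR list has a median of -0.04 and no called gene.

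Markers of several other cell types differed between the same libraries. White adipocyte genes summed to 1359 to 1900 CPM in WT and 406 to 589 CPM in KO, with 14 of 14 lower by estimate, 6 called (12 with 6 separate libraries, all lower), a median of -2.42 and none at the floor in a genotype. Of these 14 markers, 9 are also in the fat storage list, and 12 had a lower estimate than Ppara. Brown adipocyte genes summed to 133 to 335 CPM in WT and 85.1 to 95.3 CPM in KO, with 9 of 10 lower by estimate and 0 called (7 with 6 separate libraries, all lower). Ucp1, the uncoupling protein of brown fat, was at 62.6 ± 63.9 CPM in WT and 0.106 ± 0.0153 in KO. Cardiomyocyte genes summed to 2706 to 7610 CPM in WT and 1401 to 1629 CPM in KO. Of these, 14 of 14 were lower by estimate and 0 were called (6 with 6 separate libraries, all lower). Bmp10 was at the floor in KO and also had 0 counts in WT2, against 2578 in WT1 and 532 in WT3. Erythroid and hepatocyte genes were mostly higher in KO by estimate, with 0 called in the fit used here. Erythroid genes summed to 2412 to 5549 CPM in WT and 3983 to 19833 CPM in KO, with KO1 within the WT range and KO2 and KO3 above it (8 of 8 higher by estimate, median 1.69, 0 called in either fit). Hepatocyte genes were higher by estimate in 9 of 10, with a median of 3.05 and 5 called higher with 6 separate libraries, but their sum was 50.5 to 72.2 CPM in WT and 20.7 to 95.5 CPM in KO, where KO1 was the lowest library. The part of these cell types in the lower levels of Ppara, Pparg, Ppargc1a, Ppargc1b and Rxrg, and in those of the fat storage genes, was not tested.

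Across the 6 libraries, log2 levels of Ppara and of the summed white adipocyte genes had a Pearson correlation of 0.98, those of Pparg 0.92, Ppargc1b 0.91, Ppargc1a 0.89 and Rxrg 0.68. With the cardiomyocyte genes the correlations were 0.94 for Ppargc1a, 0.92 for Ppargc1b, 0.84 for Rxrg, 0.83 for Ppara and 0.61 for Pparg. Correlations of similar size were found with the brown adipocyte genes, at 0.94 for Ppara, 0.93 for Pparg, 0.91 for Ppargc1b, 0.86 for Ppargc1a and 0.72 for Rxrg. With the alveolar type 2 genes they were negative, at -0.97 for Ppara, -0.96 for Ppargc1b, -0.94 for Ppargc1a, -0.82 for Pparg and -0.80 for Rxrg. Ppard and Rxra followed the squamous epithelium genes, at 0.96 and 0.95, and to a smaller extent the alveolar macrophage genes, at 0.86 for both. With the alveolar macrophage genes Pparg had a correlation of -0.24. These correlations describe 6 points that include the genotypes, with KO2 and KO3 nearly the same. Alveolar macrophages, the lung cells best known for PPAR gamma, had markers summing to 476 to 556 CPM in WT and 497 to 556 CPM in KO, with 1 of 12 called (Mrc1, lower), 2 called lower and 2 higher with 6 separate libraries, and a median of 0.03. Alveolar type 2 cells, which make surfactant lipid, had markers summing to 27717 to 29507 CPM in WT and 38248 to 40471 CPM in KO. Of these markers, 4 of 12 were called and 9 with 6 separate libraries, all higher. Over all tested genes, 257 of 18660 were called higher, and 9.81% with 6 separate libraries.

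**Figure D5:**
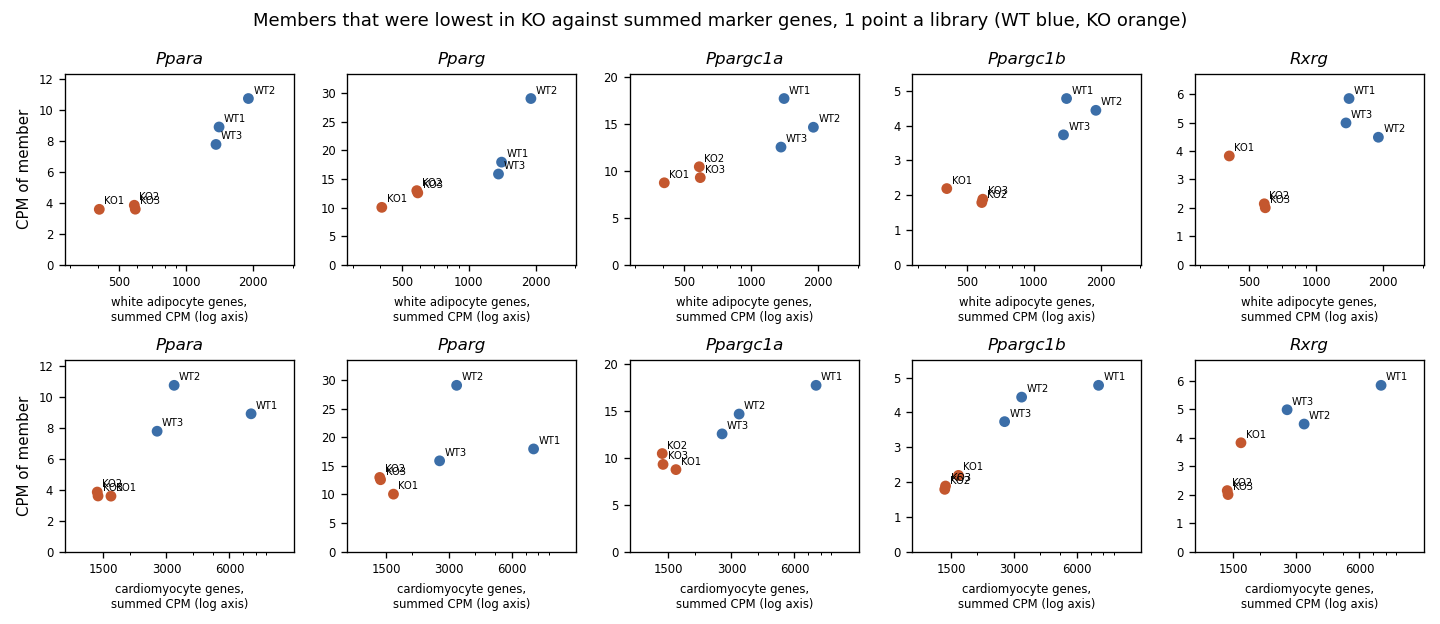
Level of Ppara, Pparg, Ppargc1a, Ppargc1b and Rxrg (CPM, linear axis from 0) against the summed CPM of white adipocyte genes (top, log axis) and cardiomyocyte genes (bottom, log axis), 1 point a library, WT in blue and KO in orange. KO points lie at 406 to 589 CPM of white adipocyte genes and WT points at 1359 to 1900 CPM.

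The members were also compared with each other and with all 15149 tested genes of at least 1 CPM. Ppara followed Ppargc1b (Pearson r = 0.97 over 6 libraries), Ppargc1a (0.91) and Pparg (0.90), and Ppard followed Rxra (0.94). The genes with the pattern most like Ppara were Cd1d1, A330023F24Rik and Acsl1 (r = 0.998 to 0.999). Those of Pparg were Chpt1, Tll1 and Gm28035, those of Ppargc1a were Fgd5, Plag1 and Man2a1, those of Ppargc1b were Heg1, Fcrla and Cd300e, and those of Rxrg were Lamb1, Kcna5 and Gucy1b3. For Ppard the nearest were Ptn, Sypl2 and Aldh3b2, for Rxra Vps18, Cpxm2 and Actn4, for Rxrb Ddx23, Bsdc1 and Klhl36, for Nr1h2 Klf11, Cnn1 and Itga5, and for Nr1h3 Mrpl22, 6030408B16Rik and 2810025M15Rik. They were picked as the closest of 15149 genes over 6 libraries and are a description of these libraries.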

How the data were processed

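Lung RNA of 3 WT and 3 KO mice was sequenced, and replicate numbers came from the labels. The deposited values are raw counts, whole numbers of reads per gene without normalization, which the authors obtained by trimming reads, aligning them to GRCm38 (mm10) with STAR and counting with HTSeq in GenPipes. Per the submitters' processing notes the tools were Trimmomatic 0.36, STAR 2.5.3a, Picard 2.9.0 and HTSeq 0.6.0. The annotation release, read length and strand setting are not given in the sources used here, so overlapping genes are uncertain. Positions and exon lengths were taken from GENCODE M21, which holds 97.5% of the genes, and promoter windows from RefSeq.

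Counts were filtered with filterByExpr, scaled by TMM and tested with the quasi-likelihood test of edgeR 4.0.16 (R 4.3.3), two-sided, with Benjamini-Hochberg adjustment over all 18660 tested genes and calls at an adjusted p of at most 0.05. DESeq2 1.42.0 was an alternative. Standard errors were taken from the estimate and its F value. The code was tested on simulated data. KO2 and KO3 were summed as 1 sample, which was decided with the data known, and the mean of their CPM is 1 value in each mean and SD. The libraries held 59134950 to 71354388 counts, and WT libraries differed by more than counting variance. Precision therefore rests on the few samples as well as on depth, and intervals cover the spread between these samples only. Correlations used log2(CPM + 0.5). The floor was 3 counts in every library of a genotype.

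Named genes were the 10 members, in each pathway list the called genes (up to 4 with the smallest p) and the 2 with the highest mean CPM, and for each member the 3 genes of at least 1 CPM with the highest correlation. Some genes under this rule are not reported here. Ucp1, Sftpc, Ager, Mrc1, Bmp10, Cyp4a10, Cyp4a14 and Fgf21 were named after their values were seen. The members and lists were chosen with earlier results of these data known. Alternatives were 6 separate libraries without and with a replicate block, other scalings, filters and tests, an offset for gene length and GC content, a squamous epithelium term, and leaving out libraries.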

Additional observations from a re-analysis of the deposited data

How the results depend on the processing

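The 426 genes and 1 member called (257 genes higher, 169 lower) became 3402 genes and 3 members with 6 separate libraries, 937 and 2 with at least 10 counts in every library, 3919 and 4 with DESeq2, 2161 and 3 with a squamous epithelium term, and 2256 and 5 without WT3 and KO1. They were 209 genes with the edgeR exact test, and 0 genes and 0 members with an offset for length and GC content, where edgeR gave 3539 genes with an unadjusted p up to 0.05. Library size alone gave 117 genes higher and 189 lower. Leaving out each library gave 0 to 418 genes and 0 to 1 members. Without WT1, WT2 or WT3 the count was 0, with 3346 to 4193 whose unadjusted p was up to 0.05, and without KO1 it was 17. Where KO1 is left out, 1 sample stands for KO and is assumed to vary like WT. The cause of these shifts was not tested.

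The replicate block gave 1157 genes and 2 members. The deviations of same-numbered libraries had correlations of -0.66, 0.69 and -0.78 (WT1 and KO1, WT2 and KO2, WT3 and KO3). KO2 and KO3 were nearly alike, and WT3 and KO1 shared squamous epithelium and skeletal muscle genes. These values therefore cannot decide whether the numbers pair the animals. Log2 fold changes near 0 changed sign. Ppard was -0.045 with 6 libraries, -0.055 with the replicate block, -0.019 by library size alone, -0.056 with the squamous term, -0.11 without WT3 and KO1, and -0.21 to 0.13 on leaving out each library. Nr1h2 was -0.030 by library size alone, -0.13 with the offset and -0.035 to 0.051 on leaving out each library, and Rxra was -0.11 to 0.063. With the offset Rxrb was -0.027 and Nr1h3 -0.0064. Ppara, Pparg, Ppargc1a, Ppargc1b and Rxrg were lower in all 17 alternatives. Ppara was called in 12, Ppargc1b in 6, Ppargc1a in 4, Pparg in 2 and Rxrg in 1.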
